A study of Cucumis melo with 4 samples.

Results

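Distal intergenic binding sites of the melon (Cucumis melo) transcription factor CmNOR that lay more than 10 kb and at most 30 kb from the start of their assigned gene are described here. They were chosen from the authors' combined peak list by its location class (distal intergenic) and its distance to the gene start, on either side. The rule took 935 of 5493 listed peaks, or 17.0% (95% exact interval 16.0 to 18.0), and 36.5% (34.6 to 38.4) of the 2563 distal intergenic peaks. The assay was DAP-seq (DNA affinity purification sequencing): a tagged protein made in E. coli pulls down fragments of purified genomic DNA, which are then sequenced. The bait was MBP-His-CmNOR in 2 libraries and MBP-His, the tag of maltose-binding protein and histidines alone, in the 2 negative controls, and all 4 libraries used melon genomic DNA. The labels also describe a PCR-amplified version of that DNA, which lacks native methylation, without saying which libraries used it. The single list has no column for a library and no count, enrichment or p-value, so library depth is unknown, no value was compared between CmNOR and the tag, and how the repeats agreed was not measured. Coordinates follow the list, and no source names its build. No genome sequence was used, so neither peak sequences nor motifs are shown.

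CmNOR belongs to the NAC family, plant transcription factors that bind DNA through a conserved N-terminal domain, and its tomato namesake NON-RIPENING promotes fruit ripening. Plant regulatory sites are usually found close to gene starts, but enhancers many kilobases from their target genes are also known. DAP-seq is done on DNA without nucleosomes, so a site on the list is one that the protein can retain in vitro. Assignment to the nearest gene start is a matter of distance and is not a measure of regulation.

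The 10 to 30 kb sites became fewer with each step away from the gene start, and more of them lay upstream than downstream. There were 419 peaks from 10 to 15 kb, 267 up to 20 kb, 155 up to 25 kb and 94 in the last step up to 30 kb. The median distance was 15689 bp, with quartiles of 12231 and 20379 bp. Of the 935 peaks, 554 were upstream, 59.3% (95% exact interval 56.0 to 62.4), and 381 downstream. The upstream share was 50.5% (49.2 to 51.8) for all listed peaks and 45.7% (43.7 to 47.9) for the promoter class, the peaks within 3 kb of a gene start. Both hold peaks that cover the gene start, at distance 0, and these were counted as downstream. That lowers both shares, and a 10 to 30 kb peak cannot have distance 0. Distance and location class were both parts of the rule. Positions inside the assigned gene lie downstream of its start and are not intergenic, so side is set in part by the rule. By 5 kb step the upstream share was 60.4%, 58.8%, 60.6% and 53.2%, and in the last step its interval ran from 42.6 to 63.6. Distal peaks up to 10 kb away were upstream in 65.7% of cases (63.0 to 68.3) and those over 30 kb away in 63.9% (59.0 to 68.6), so the interval of the 10 to 30 kb peaks lay below the first and overlapped the second. Among the 10 to 30 kb peaks that were also over 10 kb from the gene body the share was 66.4% (63.1 to 69.6), which overlaps both. That limit could take away downstream peaks only, and it was not applied to the other distance ranges. The overlap is therefore not a comparison of like with like. These intervals and all others for shares cover counting error only and treat peaks as separate, although some lie side by side.

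**Figure D1:**
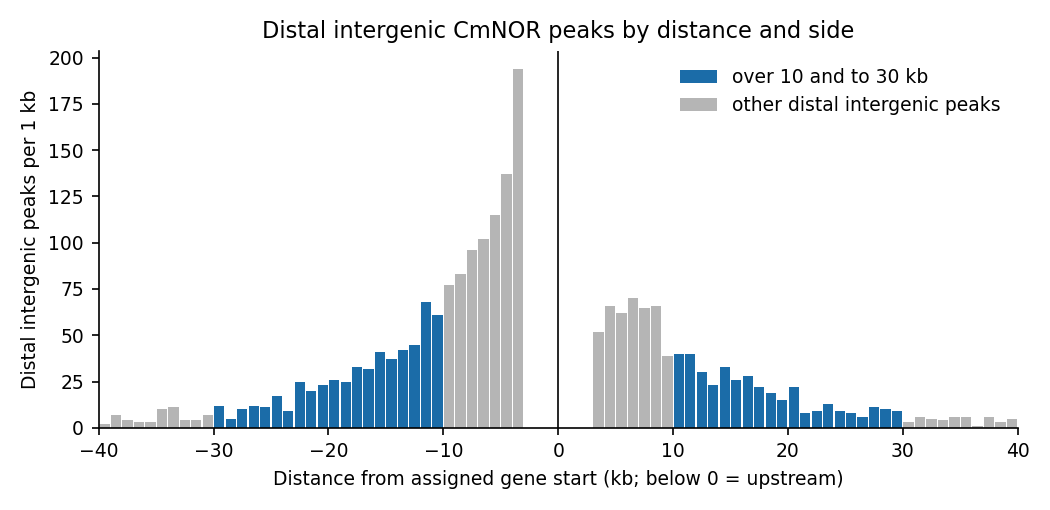
Number of distal intergenic CmNOR peaks in each 1 kb step of distance from the assigned gene start, with upstream distances below 0; blue bars are the 935 peaks over 10 and up to 30 kb away and grey bars the other distal intergenic peaks within 40 kb. Counts fall away on both sides, and the blue bars hold 554 upstream and 381 downstream peaks.

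The distance limits fall within a continuous run of peaks. Just short of 10 kb were peaks 9990 bp from MELO3C034799.2, a drug transport gene, and 9991 bp from MELO3C022044.2, a gene of lipid metabolism. Just past it were peaks 10015 bp from MELO3C033666.2, which has no Gene Ontology (GO) term, and 10023 bp from MELO3C020291.2, a membrane protein gene. At the far limit, peaks 29915 bp from the protein kinase gene MELO3C024102.2 and 29929 bp from the zinc-binding membrane protein gene MELO3C008933.2 were inside. The peaks next outside lay 30150 bp from the transaminase gene MELO3C028854.2 and 30316 bp from MELO3C012541.2, which has no GO term.

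Most of these peaks were also far from the body of the assigned gene, but a part of the downstream ones was not. Of the 381 downstream peaks, 101 lay within 10 kb of the gene's end, 26.5% (95% exact interval 22.1 to 31.2), because distance was counted from the start across the whole gene. The median gap to the gene body was 13381 bp downstream and 15512 bp upstream. With those 101 set aside, 834 peaks were left, the ones behind the upstream share of 66.4%. No peak overlapped its assigned gene (0 of 935), and 0 of 935 lay nearer to the start of another gene on the list, as assignment to the nearest start requires. Only genes with an assigned peak are on the list, so genes without one were not considered.

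A few peaks classed as distal began close to a gene's end. In 4 cases the peak started within 3 kb of the end of the assigned gene. The shortest gap was 28 bp, for a 386 bp peak on chromosome 11 (7157415 to 7157800) beyond MELO3C024716.2, a nuclear pore gene of 10474 bp. The others were 452 bp past MELO3C015101.2, an acetyltransferase gene of ribosomal RNA modification, 1004 bp past MELO3C006469.2, a gene of the Paf1 transcription elongation complex, and 1236 bp past MELO3C015221.2, annotated with glycosyl hydrolase activity. In 24 cases, 2.57% (1.65 to 3.80), the body of another listed gene was nearer than that of the assigned one.

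The 935 peaks were assigned to 834 genes, and most of these genes had a single one. A single peak was assigned to 747 genes, 2 peaks to 75 genes, 3 peaks to 10 and 4 peaks to 2. For 621 of the 834 genes, 74.5%, these peaks were the only ones on the list. The whole list has 5493 peaks for 4510 genes, so most listed genes have a single peak whatever its class. The matching share over all listed genes was not computed. Among the 87 genes with 2 or more, 14 had them on both sides of the gene.

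Of the 6 genes taken as those with the most distal peaks, 3 had no GO term. MELO3C034479.2 on chromosome 10, a gene of 733 bp without a GO term, had 4 downstream peaks at 18399, 21359, 24091 and 29098 bp, within a stretch of 11286 bp. MELO3C034526.2, also on chromosome 10 and without a GO term, had 4 peaks on both sides, 13527 and 15885 bp upstream and 18134 and 28117 bp downstream. The tightest group of 3 belonged to MELO3C005429.2 on chromosome 9, a membrane kinase gene, whose peaks at 18864, 20934 and 22675 bp upstream spanned 4297 bp. Groups of 3 on 1 side were also seen at MELO3C034679.2 on chromosome 11, which has no GO term (22496 to 28500 bp upstream), and at MELO3C035260.2 on chromosome 12, a mitochondrial ribosomal protein gene of 331 bp (19185 to 25831 bp downstream). MELO3C008368.2 on chromosome 3, annotated only as an integral membrane protein, had 3 peaks from 15429 to 26264 bp upstream.

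**Figure D2:**
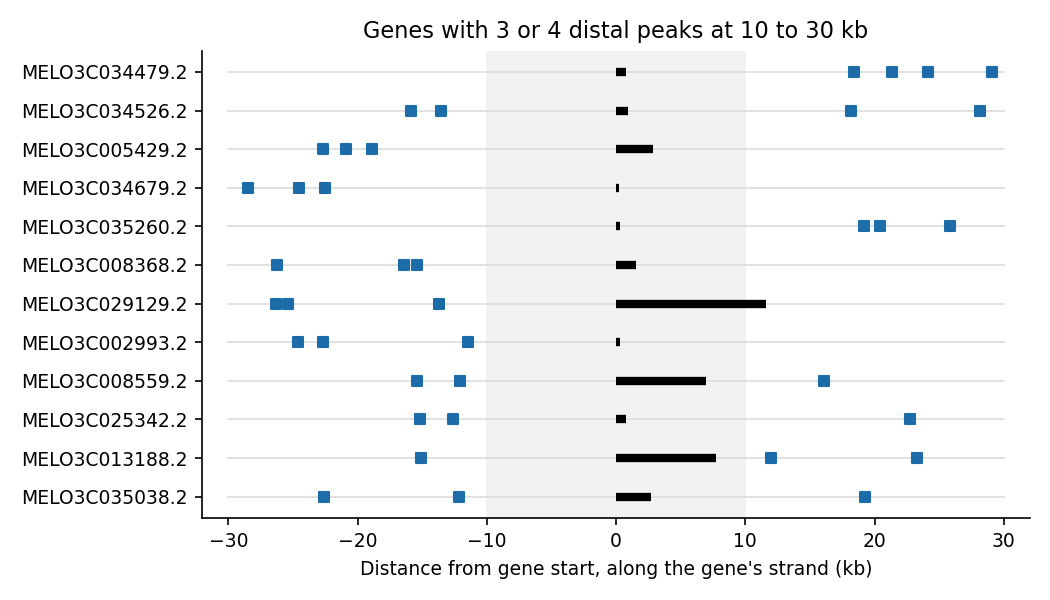
Positions of distal CmNOR peaks (blue squares) around the 12 genes that had 3 or 4 of them, in kb from the gene start along the gene's own strand, with the gene body as a black bar and the range within 10 kb shaded. The top 2 genes have 4 peaks each; groups lie on 1 side in some genes and on both sides in others.

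Another peak of the list lay within 5 kb of 147 of the 935 peaks, 15.7% (95% exact interval 13.4 to 18.2). The share was 15.0% (13.1 to 17.2) for distal peaks up to 10 kb away, 16.6% (13.1 to 20.6) for those over 30 kb and 19.1% (17.5 to 20.8) in the authors' promoter class, the peaks within 3 kb of a gene start. The first 2 intervals enclosed the value of the 10 to 30 kb peaks. Over all listed peaks the share was 17.0% (16.0 to 18.0), a value inside the interval of the 10 to 30 kb peaks. In 129 of the 147 cases the nearest peak was another 10 to 30 kb distal peak, and in 131 it had the same assigned gene. Sites so close together tend to share a distance range and a gene, so these counts are set in part by the rule.

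The closest pairs were at most 308 bp apart. In 2 pairs the peaks overlapped. Peaks of 371 and 318 bp shared 129 bp on chromosome 6, downstream of the DNA-binding protein gene MELO3C031994.2 (12899840 to 12900210 and 12900082 to 12900399). Peaks of 347 and 367 bp shared 46 bp on chromosome 10, upstream of MELO3C034419.2, which has no GO term. Upstream of the ribonuclease III gene MELO3C013052.2 on chromosome 4, peaks of 650 and 429 bp were 35 bp apart, about 25 kb from the gene start. The next pairs were 232 bp apart at the metal ion transport gene MELO3C021404.2 on chromosome 11 and 308 bp apart at the RNA helicase gene MELO3C017528.2 on chromosome 2. Overlap between entries shows that neighbouring entries had not all been merged, and some pairs could be counted as 1 wider site.

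The 10 to 30 kb distal peaks were concentrated away from chromosome ends. On the 12 numbered chromosomes they were found at 2.50 ± 0.374 per Mb (SD, n = 12 chromosomes), from 1.83 on chromosome 7 to 3.09 on chromosome 2, with the span to the last listed peak taken as length. In the first and last 10% of the span the density was 0.710 ± 0.441 per Mb, against 2.94 ± 0.438 in the part between (SD, n = 12), and the inner value was higher on 12 of 12 chromosomes. Of the 884 peaks on numbered chromosomes, 834 were in the inner part, 94.3% (95% exact interval 92.6 to 95.8). The same share was 75.1% for all listed peaks, 84.2% for distal peaks up to 10 kb away, 88.5% for those over 30 kb and 62.0% for the promoter class.

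Within the chromosomes their share among all peaks was highest at mid-span. They made up 2.57% of the peaks in the first 10% of the span, 29.4% (25.2 to 33.9) from 40 to 50%, 29.2% from 50 to 60%, and 4.93% in the last 10%. Peaks over 30 kb from a gene start followed another course and were highest at 20 to 30% of the span, with 13.9%. Peaks can be 10 kb from every gene start only where genes are sparse. Gene density was not measured here, so a preference of CmNOR and the spacing of genes cannot be told apart. The sequence chr0, which in melon assemblies conventionally collects unplaced sequence, had 51 of the peaks. They were 33.1% (25.8 to 41.1) of its 154 peaks, while the share on the numbered chromosomes ran from 12.5% to 19.0%. Frequent placement on chr0 was not particular to this range. It held 5.45% of the 10 to 30 kb peaks, 4.41% of distal peaks up to 10 kb away and 3.22% of those over 30 kb. For the promoter class the value was 1.45% and for all peaks 2.80%. If chr0 joins unplaced sequence, distances on it may not be those in the genome. Upstream peaks were the majority on 10 of the 12 numbered chromosomes, the exceptions being chromosome 7 (40.8%) and chromosome 12 (49.2%), and the share reached 72.4% on chromosome 4.

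**Figure D3:**
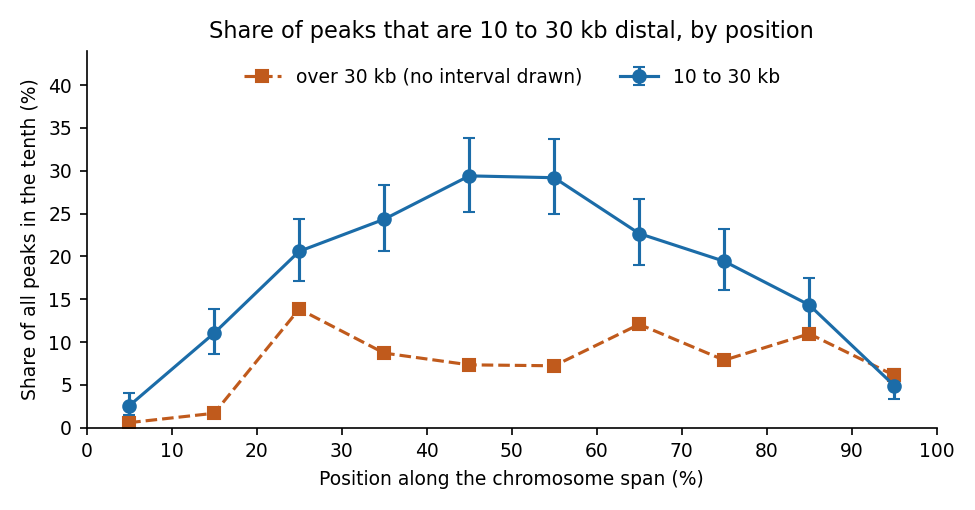
Share of all peaks in each 10% step of the chromosome span, pooled over the 12 numbered chromosomes, that were distal at 10 to 30 kb (blue circles, bars give 95% exact intervals) or distal at over 30 kb (orange squares). The blue share rises from 2.57% in the first step to 29.4% at mid-span and falls to 4.93% in the last.

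Peak widths differed little between the distance ranges. The 935 peaks were 298 to 1410 bp wide, with a median of 415 bp (95% order-statistic interval 408 to 424) and quartiles of 351 and 497 bp. The median was 414 bp (404 to 424) for distal peaks up to 10 kb away, 421 bp (410 to 430) for those over 30 kb and 428 bp (420 to 434) for the promoter class. Upstream and downstream peaks had medians of 417 and 413 bp. The interval of the 10 to 30 kb peaks overlapped those of all 3 comparison classes. By chromosome the median ran from 385 bp on chromosome 7 to 456 bp on chromosome 8. Width is not a measure of binding strength, and peaks are not replicates, so no test was made.

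**Figure D4:**
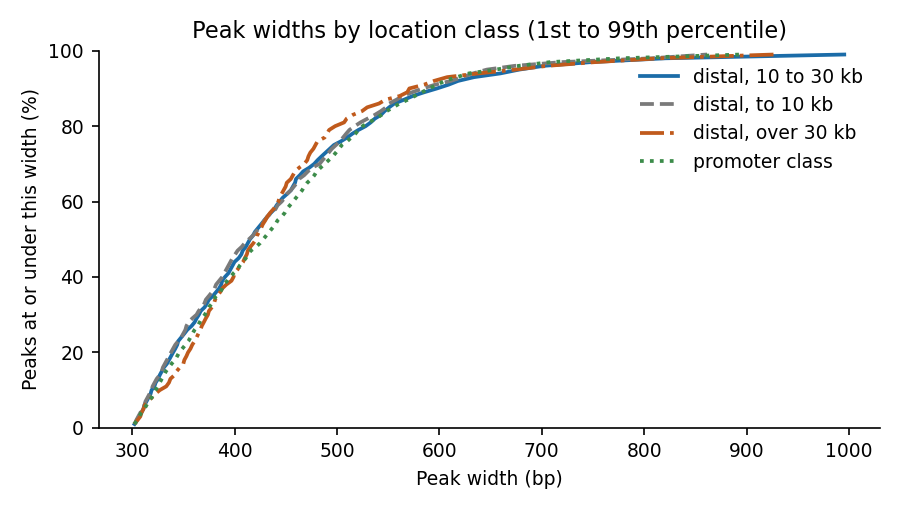
Cumulative share of peaks at or under each width in bp, from the 1st to the 99th percentile, for distal intergenic peaks at 10 to 30 kb, up to 10 kb and over 30 kb from the gene start and for the promoter class. The curves run close together, with medians between 414 and 428 bp.

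The widest peaks were mostly upstream and belonged to genes of varied function. The widest, 1410 bp at 10043855 to 10045264 of chr0, lay 15759 bp upstream of MELO3C028132.2, an ATP-binding protein gene. A peak of 1224 bp on chromosome 2 lay 20498 bp upstream of the transaminase gene MELO3C029644.2, and one of 1175 bp on the same chromosome 21085 bp upstream of MELO3C014988.2, which has no GO term. Seed dormancy and germination are controlled in plants in part by targeted protein breakdown, and a gene annotated with both processes and with the SCF ubiquitin ligase complex, MELO3C025964.2, had a 1163 bp peak on chromosome 11 (13848291 to 13849453), 12147 bp upstream. A second, 380 bp peak lay 20658 bp upstream of the same gene. The helicase gene MELO3C029961.2 on chromosome 3 had a peak of 1116 bp, 15277 bp downstream of its start. The transporter gene MELO3C020716.2 on chromosome 12 had one of 1016 bp, 17486 bp upstream, with a 551 bp peak beside it at 14393 bp. Further wide peaks measured 1155 bp at MELO3C000302.2 and 1095 bp at MELO3C030181.2, neither with a GO term, and 1013 bp at MELO3C024717.2, an ADP-binding protein gene.

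The assigned genes were often short, and about 1 in 3 had no GO term. Of the 834 genes, 558 had a GO term, 66.9% (95% exact interval 63.6 to 70.1), against 79.3% (77.5 to 81.0) of the genes in the promoter class. For distal peaks up to 10 kb and over 30 kb away the shares were 69.6% (66.9 to 72.2) and 68.4% (61.3 to 75.0), so the lower share was common to distal peaks. The median gene length was 1859 bp (1607 to 2051) against 2791 bp (2635 to 2938) in the promoter class. Genes under 500 bp made up 27.5% (24.5 to 30.6) and 15.0% (13.5 to 16.6). Among all 4510 listed genes 75.5% had a GO term, the median length was 2665.5 bp and 18.1% were under 500 bp. Short genes were likewise common among the other distal peaks. For those up to 10 kb away the median length was 2045 bp (1864 to 2246) and 23.4% of genes were under 500 bp, and for those over 30 kb away the values were 1338 bp (924 to 2106) and 28.9%. Among the 834 genes, the 276 without a GO term had a median length of 353 bp and the 558 with one 2948 bp.

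Few of the genes also had a peak near their start. A promoter-class peak was assigned to 64 of the 834 genes, 7.67% (5.96 to 9.69), while the share was 8.81% (7.24 to 10.6) for genes with distal peaks up to 10 kb away and 8.42% (4.89 to 13.3) for those over 30 kb. Over all 4510 listed genes it was 46.7% (45.2 to 48.1). The 834 genes were picked by a distal peak, and most listed genes have a single peak. A low share is therefore set in part by the rule. These 64 were 3.04% of the 2105 promoter-class genes. MELO3C014988.2 had its 1175 bp distal peak and a 575 bp peak 1732 bp upstream. MELO3C031300.2 on chromosome 5, annotated with DNA binding, transcriptional regulation and lipid binding, had a peak of 847 bp 25993 bp downstream and one of 552 bp at 2048 bp. The second was also downstream, 992 bp past the gene's end. The nuclear pore gene MELO3C026441.2 on chromosome 10 had peaks of 615 bp at 22901 bp and of 366 bp at 2187 bp, both downstream of its start. The other genes named by this rule, MELO3C033168.2 on chromosome 8 and MELO3C034634.2 on chromosome 11, have no GO term. They had peaks of 960 and 615 bp at 12556 and 17105 bp, each with a second at 2380 and 1390 bp. All of these were downstream of the gene start, and the second peak of MELO3C034634.2 lay 924 bp past the gene's end.

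Genes of 15 of the 16 GO lists had 10 to 30 kb distal peaks. Across all 3406 genes with a GO term, 558 had one, 16.4% (95% exact interval 15.2 to 17.7), and each list is read beside that share. The lists hold only genes with a peak somewhere on the authors' list, overlap in part, and were not tested. In 15 of the 16 lists the exact interval enclosed 16.4%. The exception was the list of heme-binding oxidoreductases and peroxidases, described last.

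**Figure D5:**
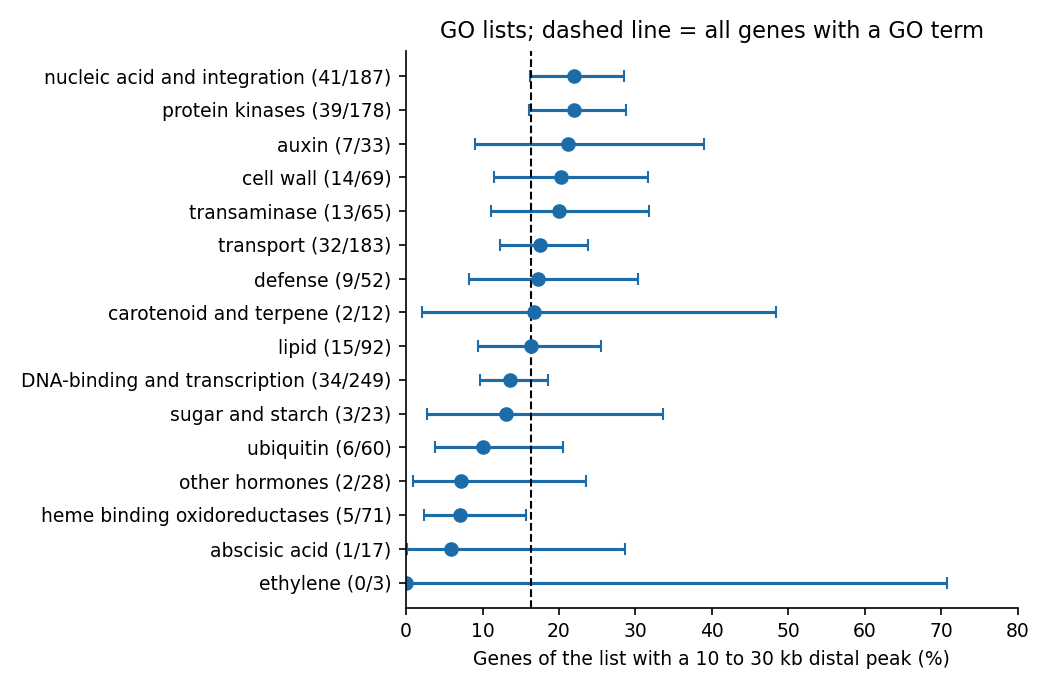
Share of the genes of each GO list (in brackets, genes with a distal peak at 10 to 30 kb and all genes of the list with any peak) that had a 10 to 30 kb distal peak, with 95% exact intervals; the dashed line marks 16.4%, the share among all genes with a GO term. Intervals enclose the line in all lists but the heme-binding oxidoreductases.

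Of 69 genes in the cell wall list, 14 had a 10 to 30 kb distal peak, 20.3% (11.6 to 31.7), an interval that encloses the 16.4% of all genes with a GO term. They had 15 peaks in all, 8 upstream. The list was matched by term names and holds wall enzymes, enzyme inhibitors and other genes; fruit softening is known to involve the breakdown of pectin and other wall polymers. Pectinesterase removes methyl groups from pectin, and MELO3C022704.2 on chromosome 4 (20219062 to 20224214), annotated with this activity, had a 585 bp peak 19481 bp upstream. Polygalacturonase cuts demethylated pectin, and its gene MELO3C022583.2 on chromosome 10 had a 417 bp peak 10838 bp downstream of its start, 9225 bp past its end. Beta-galactosidases, which trim galactose from wall polymers, were represented by MELO3C005054.2 on chromosome 12, with a 535 bp peak 16817 bp downstream, and MELO3C030442.2 on chromosome 4, with one of 530 bp 15240 bp upstream. The cellulose synthase gene MELO3C029017.2 on chromosome 1 had 2 peaks, 10786 and 13131 bp upstream. Xyloglucan transferases cut and rejoin wall glucans, and a 383 bp peak lay 11167 bp upstream of the gene MELO3C004089.2 on chromosome 5. Pectinesterase inhibitor genes were MELO3C030062.2 on chromosome 3, whose peak of 325 bp was 17077 bp upstream, and MELO3C032509.2 on chromosome 7, whose peak was 27943 bp downstream.

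Sugar, starch and terpene genes were few. Of 23 sugar and starch genes, 3 had a 10 to 30 kb distal peak, 13.0% (2.78 to 33.6). The beta-amylase gene MELO3C023067.2 on chromosome 5, for starch breakdown, had a peak of 439 bp 11661 bp upstream. The glycogen phosphorylase type gene MELO3C018948.2 on chromosome 7 had one of 459 bp 11639 bp downstream of its start but 4589 bp past its end. The trehalose phosphatase gene MELO3C035085.2 on chromosome 11 had one 23296 bp upstream. Of 12 carotenoid and terpene genes, 2 had such a peak, both terpene synthases: MELO3C023288.2 on chromosome 11, 14083 bp upstream, and MELO3C016588.2 on chromosome 6, annotated as a delta-cadinene synthase, 12868 bp upstream. None of the 3 ethylene genes had one, which with so few genes allows a share of up to 70.8% (exact limit).

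The hormone lists were small, and none had a share whose interval left out 16.4%. Auxin controls growth and, in many fruits, holds back ripening. Of 33 auxin genes, the largest of these lists, 7 had a peak, 21.2% (8.98 to 38.9), 5 of the 7 upstream. MELO3C003938.2 on chromosome 5, MELO3C029720.2 on chromosome 2 and MELO3C002771.2 on chromosome 12 are annotated with both DNA binding and auxin signalling, and had peaks 16926, 11343 and 20787 bp upstream. MELO3C007596.2 on chromosome 8, whose product joins indole-3-acetic acid to amino acids and so lowers free auxin, had a 463 bp peak 10447 bp downstream. The widest peak of the list, 621 bp, lay 15347 bp downstream of MELO3C020752.2 on chromosome 11, an auxin-responsive gene, and MELO3C027042.2 on chr0, annotated with auxin biosynthesis, had one 25066 bp upstream. Of 17 abscisic acid genes, 1 had a peak: MELO3C024162.2 on chromosome 1, a lipid droplet protein gene of oil storage in seeds, 19517 bp upstream. Of 28 genes for other hormones, 2 had one. They were the brassinosteroid signalling receptor kinase gene MELO3C033238.2 on chromosome 8, with a 646 bp peak 13533 bp downstream, and MELO3C025217.2 on the same chromosome, annotated with salicylic acid metabolism and innate immunity, with one 17475 bp upstream.

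Transcriptional regulators had distal peaks in 34 of 249 genes, 13.7% (9.65 to 18.6), with 25 of their 36 peaks upstream. The widest, 899 bp on chromosome 1, lay 22116 bp downstream of MELO3C012519.2, annotated with histone binding and transcriptional regulation. A second gene with the same annotation, MELO3C020011.2 on chromosome 3, had 2 downstream peaks at 10412 and 25501 bp. The DNA-binding transcription factor gene MELO3C007560.2 on chromosome 8 had a 667 bp peak 13028 bp upstream. MELO3C022846.2 on chromosome 9, a dimerizing transcription activator gene, had 2 upstream peaks at 10274 and 11184 bp. NAC family members could not be picked out, since GO terms do not name transcription factor families.

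Protein kinases, the enzymes of many signalling cascades, had distal peaks in 39 of 178 genes, 21.9% (16.1 to 28.7), with 24 of 44 peaks upstream. This list also holds some kinase regulators, such as the cyclin-dependent kinase inhibitor gene MELO3C020458.2 on chromosome 5, whose peak lay 16118 bp upstream. MELO3C013624.2 on chromosome 11 had 2 upstream peaks, 662 bp wide at 15609 bp and 455 bp wide at 14047 bp. The calcium-binding kinase gene MELO3C026727.2 on chromosome 8 had 2 downstream peaks, 646 bp wide at 11765 bp and 310 bp wide at 14019 bp. MELO3C014984.2 on chromosome 2 had its peaks on both sides, 17298 bp upstream and 29605 bp downstream.

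Membrane transport genes numbered 32 of 183, 17.5% (12.3 to 23.8), with 36 peaks, of which 22 were upstream. Beside MELO3C020716.2, described above, MELO3C003783.2 on chromosome 4 had a 777 bp peak 26690 bp upstream, and MELO3C001330.2 on chr0, a cytochrome c oxidase gene, had one of 753 bp 14492 bp upstream. Carbohydrate transport is annotated for MELO3C026992.2 on chromosome 2, which had its peak 11725 bp upstream, and for MELO3C017655.2 and MELO3C017656.2 on chromosome 7, with peaks 26456 bp upstream and 22270 bp downstream.

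The shares for protein turnover, lipid and defense genes were 10.0%, 16.3% and 17.3%. For ubiquitin and proteasome genes it was 6 of 60 (3.76 to 20.5), among them the proteasome core subunit gene MELO3C025735.2 on chromosome 11, where a 519 bp peak was 16983 bp upstream, and the ubiquitin transferase gene MELO3C008784.2 on chromosome 8, whose 497 bp peak was 24669 bp upstream. For lipid genes it was 15 of 92 (9.42 to 25.5), among them MELO3C031300.2 again, MELO3C020069.2 on chromosome 10, a clathrin and phospholipid binding gene with a 580 bp peak 17475 bp downstream, and the lipid metabolism gene MELO3C008938.2 on chromosome 8, with one of 561 bp 18693 bp upstream. For defense genes it was 9 of 52 (8.23 to 30.3). Next to MELO3C025217.2, the widest peaks were those of MELO3C015016.2 on chromosome 2, 467 bp wide and 11001 bp downstream, and MELO3C031111.2 on chromosome 5, a gene of nematode defense and DNA repair, 447 bp wide and 24022 bp downstream.

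Nucleic acid binding and integration terms are carried by genes inside mobile elements and by many ordinary genes. Of the 187 listed genes with such a term, 41 had a 10 to 30 kb distal peak, 21.9% (16.2 to 28.5). The widest of their 45 peaks were at the helicase gene MELO3C029961.2, at MELO3C025048.2 on chromosome 9, a zinc-binding gene with an 857 bp peak 11593 bp upstream, and at MELO3C006469.2, 736 bp wide. Transaminases move amino groups between amino acids and keto acids. They gave 13 of 65 genes, 20.0% (11.1 to 31.8), with 17 peaks, 6 of them upstream. MELO3C027610.2 on chr0 had an 813 bp peak 10390 bp upstream. MELO3C035493.2 on chromosome 12 had a 632 bp peak 12153 bp downstream and a 399 bp peak 13286 bp upstream, and MELO3C034375.2 on chromosome 10 had peaks of 614 and 543 bp, 19693 and 20700 bp downstream.

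Heme-binding oxidoreductases and peroxidases, which oxidize many plant metabolites or break down peroxide, had distal peaks in 5 of 71 genes, 7.04% (2.33 to 15.7), the lowest share among the lists of 30 or more genes. All 6 of their peaks were upstream. MELO3C003899.2 and MELO3C026488.2 on chromosome 4 had peaks of 475 and 443 bp, 16853 and 18598 bp upstream. MELO3C033122.2 on chromosome 8 had 2 peaks, 10710 and 12761 bp upstream. The list's share with a promoter-class peak was 67.6% (48 of 71), against 49.0% of all genes with a GO term. Most listed genes have a single peak, so the high promoter-class share and the low distal share are tied. With 16 lists viewed side by side and no test, these differences are a description.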

How the data were processed

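The authors deposited 1 table of 5493 peaks with positions, widths in bp, assigned genes, signed distances, location classes and GO terms, per the file headers. The tools named per the submitters' processing notes are deepTools and the peak caller MACS2. No source used here gives their versions, the thresholds, the build, the annotation or how libraries were combined, so it is unknown whether a peak was seen in both CmNOR libraries. Distance equalled that of the nearest peak edge in all 5493 rows. Of the 4510 gene identifiers, 0 matched the RefSeq gene table, so genes carry their identifier and a function taken from GO.

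Shares carry 95% Clopper-Pearson intervals and medians order-statistic intervals. GO lists were matched by keywords on term names. The outer part of a chromosome was 10% of the span at each end, and gaps between peaks were counted edge to edge. The scripts recovered known members, sides and neighbours in simulated peaks. No test was run, since no value belongs to 1 library.

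Members, lists and limits were chosen with earlier results of these data known. Genes named were the 10 widest peaks, up to 3 genes per list by width, up to 6 genes with 3 or more peaks (ties by shortest span), the 5 closest pairs, up to 5 genes with a promoter-class peak too, and peaks next to each distance limit. Of the 10 widest peaks, 1 is not reported here. Others were added after their values were seen: peaks nearest a gene's end, and further cell wall, auxin, regulator, kinase, transport, transaminase and heme genes. Python 3.11.15, numpy 2.4.6, pandas 2.3.3, scipy 1.17.1 and matplotlib 3.10.9 were used.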

Additional observations from a re-analysis of the deposited data

How the results depend on the processing

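Limits of 12 to 30 kb or 10 to 25 kb, distance from the peak centre, leaving out chr0 and peaks of at least the median width were tried on 6 results (upstream share, median width, neighbour share, GO share, promoter-class share and inner share). Other neighbour limits were tried on the neighbour share, another end size on the inner share, and distance from the gene body on the upstream share and median width. Of 35 values, 30 stayed inside the 95% interval of the reported one. The other 5 moved, 4 of them as their construction requires: the median width was 504 bp in the wider peaks, the neighbour share 7.81% at 2 kb and 24.4% at 10 kb, and the inner share 88.2% with 15% taken at each end. The upstream share was 66.4% over 10 kb from the gene body, since that limit takes away downstream peaks only. The settings drew largely on the same peaks, so most values were likely to stay inside. Leaving out chr0 could not change the inner share, which was taken on numbered chromosomes only. No paired analysis was possible because the list has no value per library. Depth per library is unknown, so how many weak distal sites went unlisted is unknown.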

Other observations

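Genes annotated with calcium ion binding had the highest share of 10 to 30 kb distal peaks among the 40 GO terms with 10 or more of the assigned genes. They numbered 12 of 39, 30.8% (95% exact interval 17.0 to 47.6). The lowest share was that of the term nucleus, 30 of 280 or 10.7% (7.35 to 14.9). Among all genes with a GO term the share was 16.4% (558 of 3406). Both terms were picked after the shares were seen and were not tested. A term was kept only with 10 or more genes that had such a peak, so a small term could enter only with a high share. Calcium ion binding was the smallest of the 40 terms, so its top rank is set in part by that limit. The calcium genes include 4 protein kinase genes (MELO3C024122.2, MELO3C008448.2, MELO3C003948.2 and MELO3C026727.2) and 2 genes of the oxygen-evolving complex of photosystem II. Of these 2, MELO3C018131.2 on chromosome 4 had peaks 10247 and 27457 bp upstream and MELO3C025475.2 on chromosome 9 had one 15294 bp upstream. MELO3C018327.2 on chromosome 10, a calcium-dependent phospholipid binding gene, had a 508 bp peak 20984 bp upstream.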
